A study of Homo sapiens with 24 samples.

Results

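Metallothionein transcripts were followed in A549 and H1975 cells, both human lung adenocarcinoma lines grown as established cultures, which had received Pirfenidone at 0.75 mg/ml, or an equal volume of PBS as the control, for 6 h or 24 h. Members were the 9 genes MT1A, MT1B, MT1E, MT1F, MT1G, MT1H, MT1M, MT1X and MT2A, out of 22242 gene symbols on the arrays. They were found by the gene name given for each spot in the scanner files. All their probes were kept, 11 of the 34127 on the array, with 2 each for MT1E and MT1X and 1 for every other gene. Both lines, both treatments and both times gave 8 groups of 3 samples, with 1 single-color Agilent array for each of 24 samples. The dose is that of the sample labels, and a figure legend of the study names a higher one for array data of A549, a conflict that could not be settled here. Each line is 1 cell line. The study describes its data in general as coming from independent experiments, and the labels do not say of the arrays whether replicates came from separate cultures, so the p-values measure the spread between these samples, which may be technical. The study used the arrays to ask which transcripts Pirfenidone, an antifibrotic drug, shifts in lung tumor cells.

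Metallothioneins are small cysteine-rich proteins that bind zinc, copper and cadmium in thiolate clusters. They buffer the free zinc of a cell, take up excess or toxic metal, and react with oxidants. Their genes lie side by side on the long arm of chromosome 16 and are among the best known targets of the zinc sensor MTF1, which binds short metal response elements in their promoters. Glucocorticoids also raise MT2A. Since the genes arose by duplication, their coding sequences are very much alike, and a probe for 1 of them can resemble another.

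Values are normalized log2 signals, that is, log2 of the background-corrected signal minus the 75th percentile of the array, so that a step of 1 is a doubling and 0 is the level of the 75th percentile. Levels of different probes are not set against each other, except that the difference between the MT1X probes on an array is compared between groups. A probe entered the tests if at least 1 group had it well above background on its 3 arrays, which held for 9 of the 11 member probes and 23827 probes in all. To pass in a comparison, a probe needed a log2 difference of at least 1 and a p, adjusted by Benjamini-Hochberg over all tested probes, no higher than 0.05, in a limma fit of all 24 arrays. That fit gives each probe 1 estimate of spread, shared by all 8 groups of both lines. The epithelial markers KRT8, KRT18, KRT19, EPCAM and CDH1 were well above background on every array of both lines, 5 of 5. Of the fibroblast markers, 2 of 5 were so in A549 and 3 of 5 in H1975, with DCN never well above background in either line. In such bulk RNA, fewer cells making a transcript and less of it per cell cannot be told apart. Arrays came from 4 runs on 7 slides, and all 4 conditions of an A549 run shared a slide. So did those of H1975 in runs 1 and 4, while in run 3 the H1975 PBS array at 24 h lay on a slide of its own. Each combination of treatment and time held the same position on every slide, so position cannot be told apart from treatment and time. Of the leukocyte markers 3 of 4 were well above background throughout in A549 and 2 of 4 in H1975, and of the endothelial ones 1 of 3 and 3 of 3. Replicate 3 of A549 at 24 h stood apart, since of the 7 member probes well above background on all A549 arrays 6 were higher with Pirfenidone in it and 6 lower in each of the other replicates, and the 24 h differences of those 7 probes are also given without it.

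On hg19 the member probes lie in order along chromosome 16, from MT2A at chr16:56643332-56643391 to MT1X. The upstream MT1E probe, annotated only to a predicted transcript, lies at chr16:56660614-56660673 and the downstream one at chr16:56660853-56660912. MT1M follows at chr16:56667810-56667869, and the MT1A probe joins pieces between chr16:56673205 and chr16:56673808. Then come MT1B at chr16:56686948-56687007, MT1F at chr16:56693077-56693136, MT1G on the minus strand at chr16:56700694-56700752 and MT1H at chr16:56704902-56704961. The upstream MT1X probe lies at chr16:56717082-56717141 and the downstream one at chr16:56717962-56718021. The array's own annotation lists a second gene for some of them. It names an MT1M transcript beside MT1A, and an MT1B transcript beside MT1X for the upstream MT1X probe. Exon and untranslated region boundaries were not used here.

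The probe sequences show how far the members differ, and 30-base stretches of them are printed 5′ to 3′ from the scanner files. Letters that differ within an aligned set are in capitals. For each aligned set the stretch with the most differing positions was chosen, so the rest of these probes is more alike than the letters shown. The first set holds the probes that measure the ends of MT1X, MT1F and MT1H, aligned over bases 13 to 42 of each, where 13 of 30 positions differ.
MT1X downstream probe: TGtGctCTcagatgTaaaTagaGCAacCTA
MT1F: CTtTctCCcagatgTaaaCagaGAGacATG
MT1H: CCtGctGTcagatgAaaaCagaATGacACG
In the other set MT1E and MT1B are aligned with MT1L, a neighboring gene or pseudogene that is no member, and 8 of 30 positions differ.
MT1E downstream probe: ctgatgtGggAaCagCTctTctcccagaTG
MT1B: ctgatgtTggGaGagCCctGctcccagaCA
MT1L: ctgatgtGggGaCagACctGctcccagaTG
The first 30 bases of the MT1M and MT2A probes are shown for contrast, since neither probe shared a run longer than 7 bases with any other member.
MT1M: ttttttcaatacgatactgagccatttgct
MT2A: caaccctgaccgtgaccgtttgctatattc

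Over their whole 60 bases, the MT1F and downstream MT1X probes matched at 49 positions without gaps, MT1F and MT1H at 46, and MT1H and downstream MT1X at 44. MT1B and the downstream MT1E probe matched at 49 of 59 aligned bases. The MT1A probe shared an unbroken run of 27 bases with that of MT1HL1, an MT1H-like gene on chromosome 1, and the upstream MT1X probe one of 26. Of all other probes on the array, MT1HL1 was the only one that held 20 identical bases in a row with any member. The levels of MT1A, MT1B, the upstream MT1X probe and the downstream MT1E probe are therefore values for probes of a family, and a part of their signal coming from a relative was not tested. Nor was it tested for MT1F and the downstream MT1X probe, which match each other at 49 of 60 bases. The MT1H probe, which matches MT1F at 46 and the downstream MT1X probe at 44 of 60 bases, was well above background on none of the arrays on which both of those were.

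**Figure D1:**
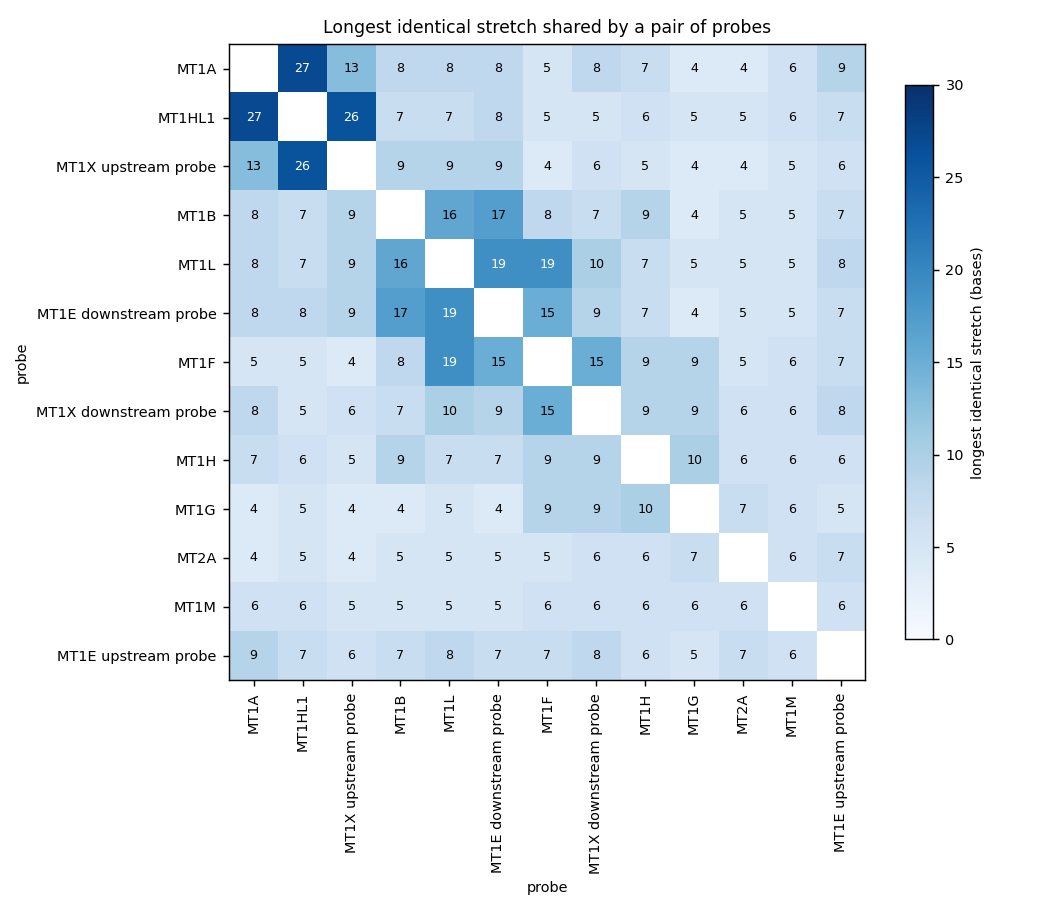
Each cell gives the longest run of identical bases, in bases, shared by the probes of its row and column, for the 11 member probes and the probes of MT1HL1 and MT1L. The highest counts, 27 and 26, join MT1HL1 with MT1A and with the upstream MT1X probe, while the MT1M and MT2A rows hold nothing above 7.

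The promoters of MT2A, MT1X, MT1B and MT1H were in the RefSeq table of GRCh38.p14, 4 of the 9 members. Their 250 bases before the annotated start are printed on the plus strand, because they hold the elements through which metals act on these genes. Capitals mark the metal response element core, searched as TGCGCNC and TGCACNC on both strands.
MT2A, chr16:56608334-56608583: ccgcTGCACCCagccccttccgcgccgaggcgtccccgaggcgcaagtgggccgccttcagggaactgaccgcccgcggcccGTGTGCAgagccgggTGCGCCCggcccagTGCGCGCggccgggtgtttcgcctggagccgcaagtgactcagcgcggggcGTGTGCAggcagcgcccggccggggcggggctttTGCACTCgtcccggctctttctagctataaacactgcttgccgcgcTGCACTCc
MT1X, chr16:56682220-56682469: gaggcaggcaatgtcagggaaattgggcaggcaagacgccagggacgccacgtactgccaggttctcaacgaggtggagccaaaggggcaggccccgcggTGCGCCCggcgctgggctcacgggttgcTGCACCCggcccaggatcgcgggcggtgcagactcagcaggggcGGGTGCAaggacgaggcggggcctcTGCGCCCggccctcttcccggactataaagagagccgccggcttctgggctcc
MT1B, chr16:56651636-56651885: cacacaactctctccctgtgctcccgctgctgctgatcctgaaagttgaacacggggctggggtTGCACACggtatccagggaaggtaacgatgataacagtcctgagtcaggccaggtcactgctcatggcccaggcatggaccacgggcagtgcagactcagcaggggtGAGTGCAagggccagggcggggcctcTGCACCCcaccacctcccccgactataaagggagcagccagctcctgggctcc
MT1H, chr16:56669564-56669813: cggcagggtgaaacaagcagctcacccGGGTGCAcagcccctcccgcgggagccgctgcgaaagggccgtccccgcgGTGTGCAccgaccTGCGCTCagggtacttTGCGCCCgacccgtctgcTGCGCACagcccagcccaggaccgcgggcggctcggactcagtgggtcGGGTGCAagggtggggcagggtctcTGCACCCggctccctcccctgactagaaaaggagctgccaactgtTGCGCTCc
In the full 300-base window, which adds 50 bases after the start, MT2A and MT1H held 8 such cores each, MT1X 4 and MT1B 3. Of the 35116 promoter windows of that length, 29.6% held at least 1 core, and 0.0199% held 8 or more. The AP-1 letters TGANTCA, searched on both strands, stood once each in MT2A and MT1B and in 7.71% of all windows. A TATAAA box on the given strand was present in MT2A, MT1X and MT1B and in 7.33% of windows, and the E-box CACGTG in MT1H and in 7.26%. Such matches describe letters, not occupied sites, and the MT1H promoter with its 8 cores belongs to a member whose probe was not well above background in either line.

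The lines themselves differed far more than the treatments. No slide held arrays of both lines, so line and slide cannot be told apart in these comparisons. In PBS, 6 of 9 member probes passed at 6 h and 7 of 9 at 24 h, all higher in H1975 than in A549. Of all tested probes 32.4% and 32.9% passed, 4071 and 4284 of them higher in H1975 and 3638 and 3560 lower. MT1M and the upstream MT1E probe entered the tests through H1975 alone, so the filter left them little room to pass in the other direction. The MT1B probe matched the downstream MT1E probe at 49 of 59 bases, and MT1A shared a run of 13 bases with the upstream MT1X probe. Signal from a relative was not tested, so the count is not taken as one of separate measurements. The median log2 difference of the member probes was 1.82 at 6 h and 1.97 at 24 h, against 0.06 and 0.08 over all tested probes, and it was the same with MT1M and the upstream MT1E probe at their lower bounds. At 24 h the member probes that passed were those of MT1A, MT1B, MT1M and MT2A, both MT1E probes and the upstream MT1X probe.

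MT1M, a metal-binding type 1 isoform, was the sharpest case. Its probe was well above background on all 12 H1975 arrays and on none of the 12 A549 arrays. In H1975 it measured 1.99, 2.31 and 2.32 with PBS at 6 h and 2.55, 2.50 and 2.22 with PBS at 24 h. All A549 values lay between -9.22 and -8.75. A549 was set to the lowest signal counted as well above background on the same arrays. MT1M was then at least 541-fold higher in H1975 at 6 h and at least 568-fold higher at 24 h. The limma adjusted p, 3.91e-20 at 6 h and 4.17e-20 at 24 h, belong to the measured differences of 11.24 and 11.27, not to these bounds. Those differences set H1975 against background signal in A549, and the probe entered the tests through H1975 alone.

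MT1E, another type 1 isoform, followed on both of its probes. The downstream probe measured 5.68, 5.67 and 5.54 in H1975 with PBS at 6 h, and 2.17, 2.99 and 2.25 in A549. At 24 h it measured 5.71, 5.68 and 5.85 in H1975, and 2.30, 2.86 and 1.61 in A549. No H1975 array came near the highest A549 array. The log2 difference was 3.16 ± 0.27 (SE, n = 3 arrays a group, limma adjusted p = 6.69e-09) at 6 h and 3.49 ± 0.27 (adjusted p = 1.58e-09) at 24 h, or 3.16 without A549 PBS replicate 3. The upstream MT1E probe was well above background on all 12 H1975 arrays and on no A549 array, and it was at least 10-fold higher in H1975 at 6 h and at least 11.5-fold higher at 24 h. Its spread within H1975 was wide, from -4.82 to -2.82 in PBS at 6 h.

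MT1A, MT1B and the upstream MT1X probe lay close together in this comparison. The MT1A and upstream MT1X probes shared a run of 13 bases, while MT1B shared at most 8 with MT1A and 9 with upstream MT1X. With PBS at 6 h, MT1A was 6.20 ± 0.04 in H1975 and 4.48 ± 0.40 in A549 (mean ± SD, n = 3), a log2 difference of 1.72 ± 0.21 (SE, limma adjusted p = 1.2e-06). MT1B was 5.71 ± 0.05 against 3.87 ± 0.39, and the upstream MT1X probe 5.49 ± 0.10 against 3.67 ± 0.43. At 24 h the differences of these probes were 1.86, 2.06 and 1.97, or 1.63, 1.74 and 1.66 without A549 PBS replicate 3, with all of them still passing, and for each of them all H1975 arrays lay above all A549 arrays at both times. Within run 3 they were smaller than within run 1, for MT1B 1.40 against 2.10 at 6 h and 1.43 against 2.78 at 24 h.

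MT2A, the type 2 isoform that is widely expressed and inducible, differed less. It measured 6.78, 6.49 and 6.58 in H1975 with PBS at 6 h, above the A549 values of 5.36, 6.19 and 5.52. The log2 difference of 0.93 ± 0.26 (limma adjusted p = 0.0048) missed the limit of 1. At 24 h the H1975 values were 6.65, 6.53 and 6.82 and the A549 values 5.49, 6.07 and 4.98, and the difference of 1.15 ± 0.26 passed (adjusted p = 0.000798). That call was lost without A549 PBS replicate 3 at 24 h, with a difference of 0.89, and the 6 h difference passed at 1.18 without A549 PBS replicate 2. Within run 3 the MT2A difference was 0.30 at 6 h and 0.58 at 24 h, and within run 1 it was 1.26 and 1.85.

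MT1F and the downstream MT1X probe did not pass between the lines. For MT1F the log2 difference was 0.37 (95% interval -0.38 to 1.11) at 6 h and 0.79 (0.04 to 1.54, limma adjusted p = 0.0638) at 24 h. Within runs 1 and 3 the MT1F difference was 1.34 and -0.34 at 6 h, so its sign differed between them, and 1.49 and 0.06 at 24 h. Without A549 PBS replicate 3 the 24 h difference was 0.71 (adjusted p = 0.148). The downstream MT1X probe gave 0.55 (-0.02 to 1.12) and 0.74 (0.17 to 1.31, adjusted p = 0.0256), and without A549 PBS replicate 2 at 24 h it passed with 1.09, without A549 PBS replicate 3 it was 0.31 (adjusted p = 0.226), and within runs 1 and 3 it was 1.54 and -0.02. Both MT1X probes thus gave different sizes for 1 gene. Array by array, the downstream signal minus the upstream signal was -3.96 to -3.64 in H1975 and -2.63 to -2.40 in A549 with PBS at 6 h, without overlap, and the difference of these means was -1.27 (exact permutation p = 0.1, two-sided, the smallest that 3 arrays against 3 allow). At 24 h it was -1.23 (same p). The upstream probe is the one whose annotation also lists MT1B.

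MT1G and MT1H could not be measured. MT1H was well above background on 0 of 24 arrays, and MT1G on 1, an H1975 array with Pirfenidone at 24 h. Their signals reached at most -6.92 and -7.58, and no fold is given for them.

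**Figure D2:**
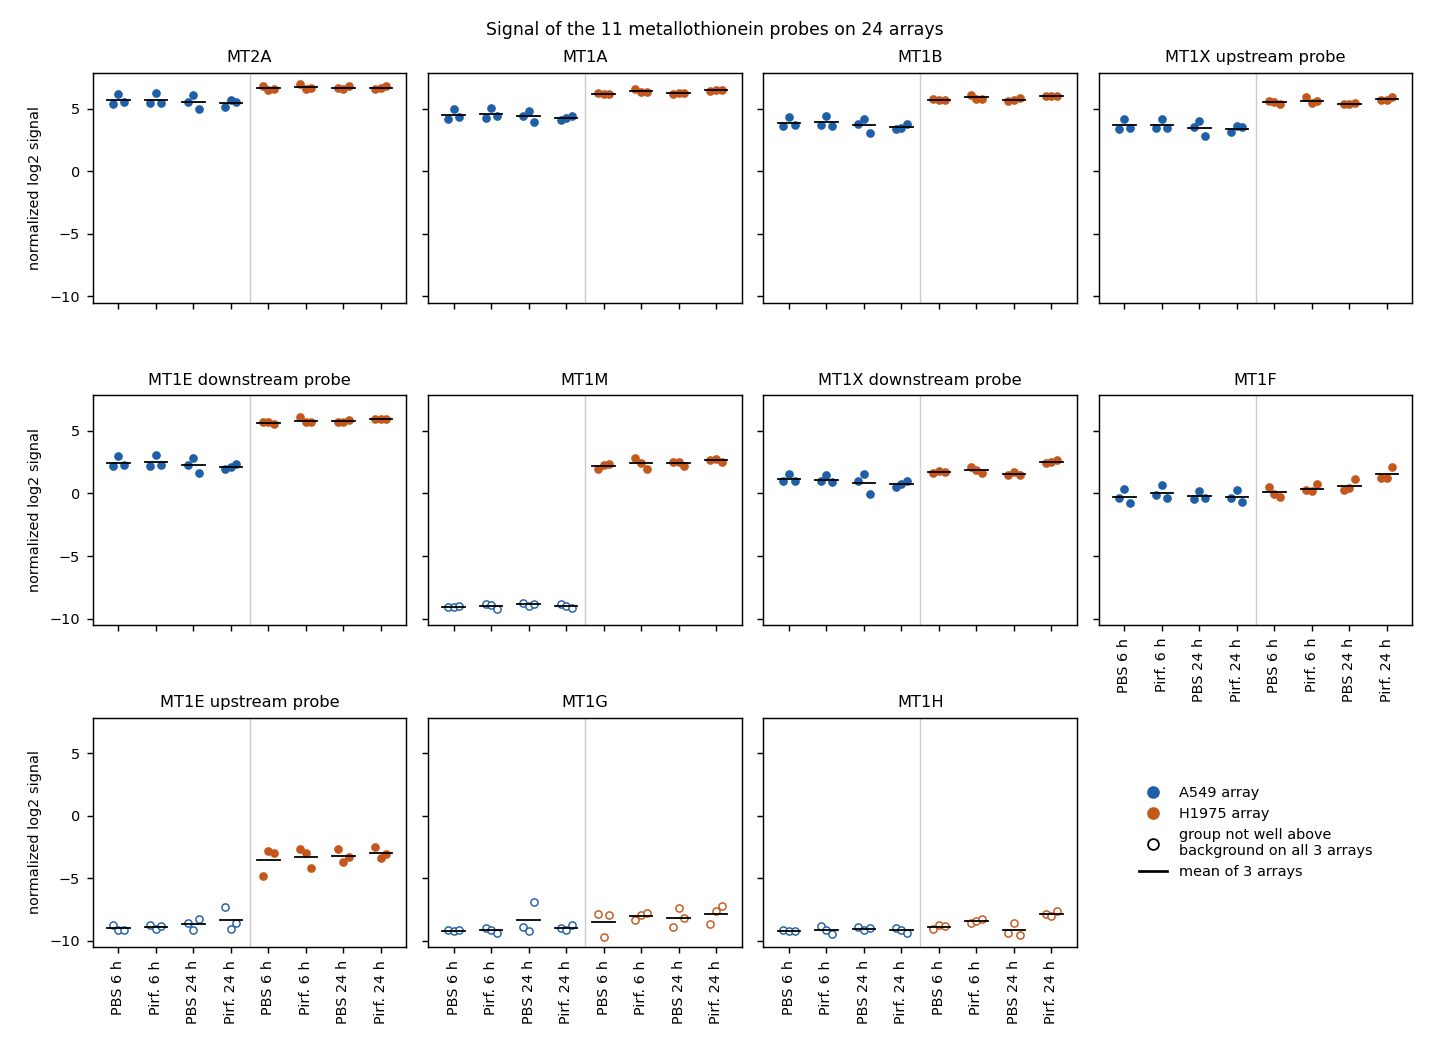
Each panel shows 1 member probe, with the normalized log2 signal on the vertical axis and the 8 groups on the horizontal axis. Points are arrays, bars are means of 3 arrays, and open points mark groups not well above background on all 3 arrays. MT1M and the upstream MT1E probe are filled in H1975 and open in A549, and replicate 2, the middle point of each group, is the highest in A549 for the 7 bright probes in 3 of 4 groups.

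**Figure D3:**
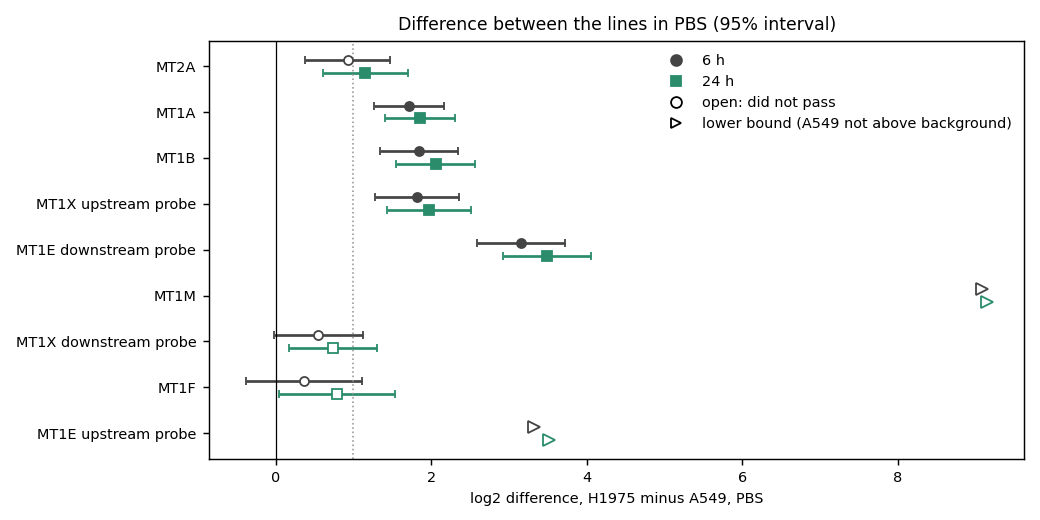
The log2 difference between H1975 and A549 in PBS is plotted for the 9 tested member probes at 6 h (circles) and 24 h (squares), with 95% intervals from the limma fit. Open circles and squares did not pass, the dotted line marks a difference of 1, and triangles are lower bounds. MT1M lies at 9.08 and 9.15 or beyond, and the MT2A, MT1F and downstream MT1X intervals reach below 1 at both times.

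Within A549 the members moved together from array to array. Of the 7 member probes well above background in A549, all 7 were highest in replicate 2 in the PBS group at 6 h, the Pirfenidone group at 6 h and the PBS group at 24 h. In the PBS group at 24 h, 6 of 7 were lowest in replicate 3. MT1B, for instance, measured 3.62, 4.32 and 3.66 with PBS at 6 h, and 3.73, 4.20 and 3.03 with PBS at 24 h. Over the 12 arrays of a line, highest minus lowest, MT1B spanned 1.35 in A549 and 0.47 in H1975, MT2A 1.23 and 0.50, but MT1F 1.43 and 2.39. In H1975 at 24 h, replicate 3 was highest for 6 of 7 in PBS and for 7 of 7 with Pirfenidone. The 4 replicate 2 arrays of A549 belonged to run 3 and shared a slide of their own, so slide and culture cannot be told apart there. The H1975 arrays of run 3, on other slides, were highest in their group for 1 of 7 probes with PBS at 6 h, for 6 of 7 with Pirfenidone at 6 h, and for 0 of 7 in both groups at 24 h. Across the 12 arrays of a line, MT1A and MT1B correlated with an r of 0.98 in A549 and 0.97 in H1975, and MT1F and the downstream MT1X probe, which match at 49 of 60 bases, with an r of 0.46 and 0.65. These values describe the arrays, and the points share runs and treatments.

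Pirfenidone moved none of the member probes past the rule. In A549 the count was 0 of 9 at both 6 h and 24 h, beside 0.176% and 0.0126% of all tested probes, and in H1975 it was 0 of 9 at both times, beside 0.491% and 1.89%. At an unadjusted limma p under 0.05 the counts were 0 and 0 in A549, and 0 and 2 in H1975. A paired test by run, which the study names for selected genes, called 0 of all 23827 probes after Benjamini-Hochberg adjustment in each of the 4 comparisons, so its count of 0 members carries no information.

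In A549 at 6 h the log2 differences of the 7 probes that could be measured were small. MT2A measured 5.44, 6.21 and 5.45 with Pirfenidone against 5.36, 6.19 and 5.52 with PBS, and the values of each replicate nearly coincided. The MT2A difference was 0.01 (95% interval -0.54 to 0.55), and that of MT1B 0.03 (-0.48 to 0.54). Over these 7 probes the differences ran from -0.06 to 0.32, the highest for MT1F (95% interval -0.43 to 1.07).

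In A549 at 24 h the replicates did not move alike. Within run 2 and run 3, 6 of the 7 measurable probes were lower with Pirfenidone than with PBS, and within run 1, which is replicate 3, 6 of 7 were higher. MT1B gave -0.36, -0.77 and 0.70 in runs 2, 3 and 1, and the downstream MT1X probe gave -0.46, -0.80 and 1.07. MT2A gave -0.33, -0.35 and 0.56. The median over these 7 probes was -0.08, against -0.02 over all tested probes. Without both replicate 3 arrays, the differences of the 7 probes lay between -0.63 for the downstream MT1X probe and 0.05 for MT1F, 6 of 7 below 0, with a median of -0.42 and a lowest adjusted p of 0.399.

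H1975 at 6 h showed differences above 0 for all 9 tested member probes, from 0.13 for MT2A to 0.29 for MT1F, with a median of 0.18 against 0.05 over all tested probes. MT1M measured 2.87, 2.47 and 1.99 with Pirfenidone against 1.99, 2.31 and 2.32 with PBS, and the groups overlapped. The lowest adjusted p among the members was 0.725. Within run 3 the difference was above 0 for 9 of 9, within run 4 for 8 and within run 1 for 5. Without Pirfenidone replicate 1, the array of run 3, the differences ran from -0.04 for the upstream MT1E probe to 0.36 for MT1F with a median of 0.04, and those of MT2A and the upstream MT1X probe were both 0.01.

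H1975 at 24 h held the largest drug differences of the family. The downstream MT1X probe measured 2.40, 2.49 and 2.69 with Pirfenidone against 1.50, 1.71 and 1.50 with PBS. Every Pirfenidone array was higher than every PBS array. The log2 difference was 0.96 ± 0.27 (SE, n = 3, 95% interval 0.39 to 1.53, limma adjusted p = 0.0435), a 1.94-fold rise that met the adjusted p and fell short of the fold limit. Without a fold limit, 2.91% of all tested probes were higher at that adjusted p, and the downstream MT1X probe was the only member among them. Leaving out single arrays of this comparison moved its difference between 0.88 and 1.03 and its adjusted p between 0.0702 and 0.183, so the call at the adjusted p was lost without any 1 of the 6 arrays. It was also lost with normexp background correction (0.084), with the authors' processed values (0.0543), with no filter on dim probes (0.0628) and with Holm adjustment.

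MT1F measured 1.26, 1.24 and 2.14 with Pirfenidone against 0.28, 0.40 and 1.15 with PBS. Again the groups did not overlap, and the array of run 1 was the highest in each. The log2 difference was 0.94 ± 0.36 (95% interval 0.19 to 1.68, limma adjusted p = 0.125). Within runs 1, 3 and 4 it was 0.99, 0.98 and 0.84, and that of the downstream MT1X probe was 1.19, 0.90 and 0.79. The run 3 differences cross slides, since the PBS array lay on another slide than the Pirfenidone array. With run as a block the adjusted p was 0.0886 for MT1F and 0.0247 for the downstream MT1X probe. With run within each line as a block, a setting added after the data were seen, it was 0.000169 and 0.0141, and under both blocks the differences were the same, under the limit of 1.

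The remaining members moved less in H1975 at 24 h. The upstream MT1X probe measured 5.69, 5.67 and 5.90 with Pirfenidone against 5.38, 5.37 and 5.42 with PBS, a difference of 0.36 (95% interval -0.17 to 0.90, adjusted p = 0.45). The SE of this difference, 0.26, rests on the spread of all 8 groups, so the interval carries the spread of A549 arrays too. This probe spanned 1.38 over the A549 arrays and 0.55 over those of H1975, while MT1F spanned more in H1975, 2.39 against 1.43. Downstream minus upstream signal of MT1X was -3.30 to -3.18 with Pirfenidone and -3.91 to -3.67 with PBS, so the downstream probe came nearer to the upstream one by 0.59 (exact permutation p = 0.1, two-sided, the smallest possible; chosen after the values were seen). MT1A, MT1B and the downstream MT1E probe gave 0.24, 0.28 and 0.20. For MT1A the shared SE was 0.21, and its differences within runs 1, 3 and 4 were 0.23, 0.25 and 0.25. MT1M gave 0.23 (-0.14 to 0.59), and MT2A was level at 0.01 (-0.53 to 0.55), with 6.60, 6.62 and 6.81 against 6.65, 6.53 and 6.82. For 6 of 9 member probes every Pirfenidone array lay above every PBS array, where 16.3% of all tested probes did. These 6 were MT1A, MT1B, the downstream MT1E probe, MT1F and both MT1X probes. Several of them share sequence, so they do not count as separate measurements. The median difference of the 9 member probes was 0.25, against 0.02 over all tested probes. The dim MT1H probe read -7.81 ± 0.23 with Pirfenidone and -9.15 ± 0.50 with PBS, none of them well above background, so no fold is given.

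**Figure D4:**
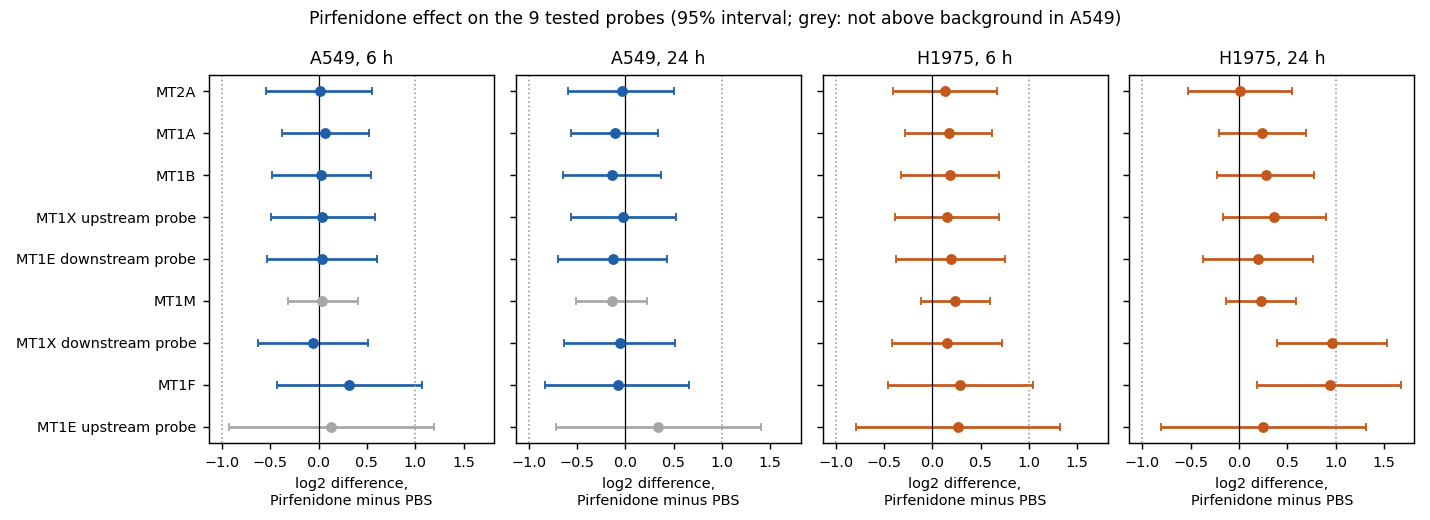
The log2 difference between Pirfenidone and PBS is plotted for the 9 tested member probes in each line and time, with 95% intervals from the limma fit. Dotted lines mark -1 and 1, and grey points stand for MT1M and the upstream MT1E probe in A549, where they were not above background. All points lie between the dotted lines, and only the MT1F and downstream MT1X intervals in H1975 at 24 h leave out 0.

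**Figure D5:**
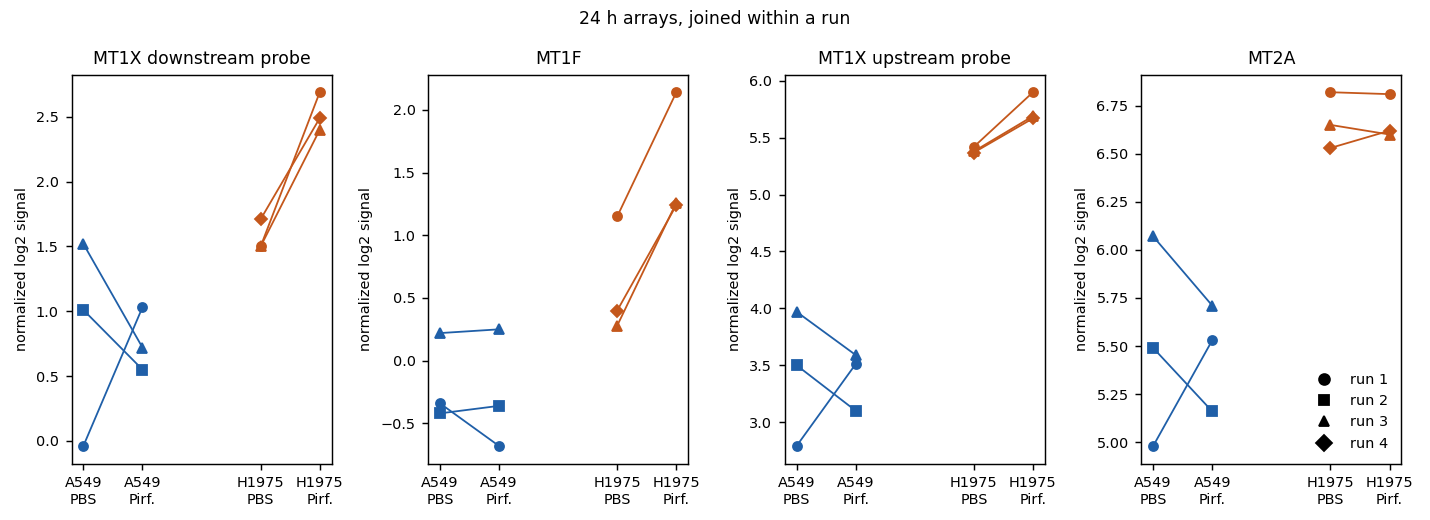
Normalized log2 signals of 4 member probes at 24 h are shown for PBS and Pirfenidone, with lines joining the arrays of a run and marker shapes naming the run. All 3 H1975 lines rise for MT1F and both MT1X probes, while the A549 line of run 1 rises and those of runs 2 and 3 fall for MT2A and both MT1X probes.

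Whether the drug effect differed between the lines was tested directly. At 6 h 0 of 9 member probes passed, beside 0.0336% of all tested probes, and 0 had an unadjusted p under 0.05. At 24 h the count was also 0 of 9, beside 0.193%, with 1 member, the downstream MT1X probe, at an unadjusted p under 0.05. Its drug effect was 1.02 ± 0.39 (SE) higher in H1975 than in A549 (limma adjusted p = 0.269), and that of MT1F 1.02 ± 0.50 higher (adjusted p = 0.433). Without A549 PBS replicate 3 at 24 h, the downstream MT1X value passed with 1.46 (adjusted p = 0.0494), and without both replicate 3 arrays it was 1.59 (adjusted p = 0.0526). The MT1F value of 1.02 had an adjusted p of 0.29 with run as a block and passed with run within each line as a block (adjusted p = 0.00427, a setting added after the data were seen).

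Between 6 h and 24 h the drug effect passed for 0 of 9 member probes in either line, beside 0.0294% of all tested probes in A549 and 0.00420% in H1975, and 0 had an unadjusted p under 0.05 in limma. In H1975 the difference between the times was 0.81 (95% interval -0.00 to 1.61) for the downstream MT1X probe and 0.64 (-0.41 to 1.70) for MT1F. In PBS alone, 24 h against 6 h, 0 of 9 passed in A549, beside 0.109%, and 0 of 9 in H1975, beside 0.315%, with none at an unadjusted p under 0.05. In H1975 the differences of the 9 probes ran from -0.15 to 0.52. In A549 those of the 7 measurable probes ran from -0.34 for the downstream MT1X probe to 0.09 for MT1F, with 1 of 7 above 0. Without PBS replicate 3 at 24 h they ran from 0.07 to 0.17, all above 0.

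Of 12 other metallothionein loci listed, 6 were on the array and 5 had a tested probe. MT1L measured 5.81 ± 0.08 in H1975 and 3.86 ± 0.39 in A549 with PBS at 6 h (log2 difference 1.94, adjusted p = 2.02e-06), and MT1HL1 5.71 ± 0.10 and 3.54 ± 0.45 (2.16, adjusted p = 1.07e-06), sizes near those of MT1B and MT1A, with which they share sequence. MT1DP, a pseudogene with 1 tested probe, went the other way, with -7.22 ± 0.33 in H1975, where 2 of 3 arrays were well above background, and -5.80 ± 0.39 in A549 (difference -1.42, adjusted p = 0.000237). MT3, the growth inhibitory factor best known from brain, was alike in both lines, with -0.66 ± 0.27 and -0.68 ± 0.05, and its difference was 0.02 (95% interval -0.30 to 0.35). MT1IP, another pseudogene, gave a difference of -0.98 (-2.07 to 0.12) at 6 h. None of the 5 passed with Pirfenidone in any line or time. MT1DP came nearest in H1975 at 24 h, with -5.15 ± 0.28 against -6.10 ± 0.32 (difference 0.96, adjusted p = 0.0484), on a dim probe.

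The genes that sense and carry metals did not pass with Pirfenidone either. Of the metal response list, 8 probes of 7 genes were tested and 0 passed in each of the 4 drug comparisons, with a median of -0.04 in H1975 at 24 h against 0.02 over all tested probes. MTF1, the zinc sensor itself, was -1.43 ± 0.18 with Pirfenidone and -1.47 ± 0.14 with PBS in A549 at 6 h, and -1.15 ± 0.12 and -1.31 ± 0.14 in H1975 at 24 h (difference 0.16, adjusted p = 0.564). SLC30A1, the zinc exporter induced by MTF1, gave -0.04 in A549 at 6 h and -0.23 (adjusted p = 0.389) in H1975 at 24 h. The probe of SLC30A10, an exporter of manganese, was not tested, since no group had it well above background on all 3 arrays. Between the lines in PBS, SLC30A1 was level, with -0.07 at 6 h, and MTF1 was 0.50 higher in H1975 at 6 h (adjusted p = 0.00422), under the fold limit, and 0.24 (adjusted p = 0.146) at 24 h. GCLC, a glutathione synthesis enzyme, was lower in H1975 by -2.53 at 6 h and -2.69 at 24 h, and PGF, a growth factor, higher by 1.25 at 24 h.

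Zinc transporters, 24 tested probes of 20 genes, gave 0 passing probes in each drug comparison. In H1975 at 24 h 1 of 2 probes of SLC39A14, an importer of zinc and iron, was 0.48 higher with Pirfenidone (SE 0.13, adjusted p = 0.0314), under the fold limit, and the other gave 0.34 (adjusted p = 0.488). SLC39A2 in H1975 at 6 h also met the adjusted p (0.0282), on a probe well above background on 2 of 3 arrays with Pirfenidone and 0 of 3 with PBS. Both were named after their values were seen. Between the lines at 24 h, 2 were higher in H1975, SLC39A2 and SLC39A3, and 2 lower, SLC30A3 and SLC39A8. SLC39A8, an importer of zinc and cadmium, has 2 probes. The one that passed was well above background on all 3 A549 arrays with PBS at 24 h and on 0 of 3 in H1975, while the other did not pass and was well above background on every one of these arrays, at 0.91 ± 0.15 in A549 and 0.43 ± 0.39 in H1975. Copper handling genes, 18 tested probes of 12 genes, also gave 0 in each drug comparison. In PBS at 24 h, 1 probe was higher in H1975, that of CCS, the copper chaperone of superoxide dismutase, by 1.04, and 4 were lower, 1 each of the copper pumps ATP7A and ATP7B and 2 of the plasma copper carrier CP. The 5 ATP7A probes disagreed, with -1.08 for the one that passed, -0.75 to -0.26 for 3 others and 0.96 for 1. The medians of both lists stayed between -0.01 and 0.11 in the drug comparisons.

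The glucocorticoid response list, 12 tested probes of 11 genes, was followed because MT2A answers to these hormones. It gave 0 passing probes in each drug comparison, with a median of 0.34 in H1975 at 6 h and 0.18 at 24 h, against 0.05 and 0.02 over all tested probes. Its differences ran from -0.44 to 1.14 in A549 at 6 h, from -0.20 to 0.21 in A549 at 24 h, from -0.39 to just under the fold limit of 1 in H1975 at 6 h and from -0.50 to 0.93 in H1975 at 24 h. The highest in 3 of these 4 was TSC22D3, a glucocorticoid-induced leucine zipper gene, named after its values were seen. It measured 1.82 ± 0.22 with Pirfenidone against 0.69 ± 0.25 in A549 at 6 h (adjusted p = 0.0527), 2.40 ± 0.06 against 1.40 ± 0.23 in H1975 at 6 h (adjusted p = 0.0492) and 2.56 ± 0.37 against 1.63 ± 0.42 in H1975 at 24 h (adjusted p = 0.0315). For NR3C1, the glucocorticoid receptor, 1 of 2 probes was 0.46 higher in H1975 at 6 h (adjusted p = 0.0236), and the other gave 0.56 (adjusted p = 0.104). In those 3 comparisons MT2A differed by 0.01, 0.13 and 0.01.

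Genes that followed MT2A most closely were sought over the 24 arrays after the mean of each line was taken off. MT1HL1 (Pearson r = 0.913) and MT1L (0.903) came first among non-members, then HOMER2, a synaptic scaffold protein, at 0.887, EPHB2, an ephrin receptor, at 0.877, and NPC2, a lysosomal cholesterol carrier, at 0.875. Spearman's rho was lower, 0.734 for HOMER2. Members reached 0.926 for the upstream MT1X probe, 0.917 for downstream MT1E and 0.911 for MT1A, but 0.638 for the downstream MT1X probe and 0.472 for MT1F. For HOMER2 the r was 0.96 over the 12 A549 arrays and 0.35 over the 12 of H1975. These are descriptions of arrays that share runs, with A549 replicate 2 high for 7 member probes in 3 of the 4 groups.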

How the data were processed

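Conditions and replicate numbers came from the sample labels, and runs, slides and positions on a slide from dates and numbers attached to the scanner files. The deposited files, made by the authors with Agilent Feature Extraction 11.5.1.1, hold the intensity of each spot, with background subtracted and flags for outlier, saturated and well above background spots. Processed log2 values by the authors, in which each probe appears centered on its median, by a scaling that is not stated, served only as an alternative.

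From the processed signals, log2 minus the 75th percentile of the array over 43118 spots that are not controls was computed. Outlier spots were dropped and spots of 1 probe averaged, with a probe taken to be well above background when at least 0.5 of its spots were. No probe was saturated, and each array had 62.7% to 69.5% of probes well above background. Tests used limma 3.58.1 in R 4.3.3 (lmFit, eBayes) in 1 fit of 8 groups, checked on simulated data. The number of arrays limits the precision.

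Members, gene lists and comparisons were chosen with earlier results of these data known. Every member probe is named, and from the lists every gene passing in a drug comparison, with MTF1, SLC30A1 and SLC30A10 always; list genes named between the lines were named after their values were seen. Lists held other metallothionein loci, metal response, zinc transporter, copper handling and glucocorticoid response genes. A lower bound sets the dim group, per array, to the higher of its own signal and the lowest signal of any probe well above background. Of the 9 members, 4 matched a promoter in the RefSeq table by symbol. Probe positions are those of the array files on hg19. Replicate numbers did not pair the samples in every comparison, since the deviations of same-numbered H1975 arrays at 6 h correlated at -0.48, 0.43 and -0.68, while arrays of the same run correlated at 0.50, 0.70 and 0.82.

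Alternatives were normexp correction (offset 50), the authors' processed values, quantile normalization, a stricter filter or none, replicate, slide or run as a block, only the arrays compared, Holm adjustment, no fold limit, the mean of a gene's probes, the paired test the study names for selected genes, and arrays left out. For the arrays the study names a moderated test with a family-wise permutation correction, in place of which Benjamini-Hochberg was used here.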

Additional observations from a re-analysis of the deposited data

How the results depend on the processing

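Of 280 recomputed counts of member probes passing, 274 stayed within 1.5 times the main count. Most main counts were 0, and some settings called few or no probes of the array. The paired test after Benjamini-Hochberg adjustment called 0 of 23827, so a count that stayed at 0 carries little information there. In H1975 with Pirfenidone at 24 h the count rose from 0 to 1 with quantile normalization and with no fold limit (the downstream MT1X probe, 1.01 and 0.96), and to 1 with no filter on dim probes (MT1H, not well above background on any array). For the drug effect in H1975 minus A549 at 24 h it rose to 1 with run within each line as a block (MT1F), and to 1 without both A549 replicate 3 arrays with run as a block (the downstream MT1X probe, 1.59, adjusted p = 0.00915), both chosen after seeing the data. Leaving out 1 array at a time gave 6 to 7 members between the lines at 6 h, 6 to 8 at 24 h, 0 to 1 for the drug effect in H1975 minus A549 at 24 h, and 0 in every other comparison. With the replicate number as a block, nested in the line, the count was 0 in each of the 10 comparisons it could be fitted for, with adjusted p of 0.0267 for the downstream MT1X probe and 0.0242 for MT1F in H1975 at 24 h. Comparisons between the lines could not be fitted with that block or with run within line. Of 2448 recomputed log2 differences of member probes, 10 became calls, 4 calls were lost and none that passed turned its direction. All 4 lost calls were MT2A between the lines at 24 h: 1.15 under Holm adjustment, 0.89 without A549 PBS replicate 3 or both replicate 3 arrays, and 0.75 without both with run as a block. The causes were not tested. Signals near background limit the upstream MT1E, MT1G and MT1H probes.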
